A study of Mus musculus with 2 samples.

Results

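Hemidesmosomes fix basal epithelial cells to the basement membrane, and 9 genes that build or support this junction were followed in prostaspheres with and without Sox9. In the textbook account, the integrin α6β4 (Itga6, Itgb4) and collagen XVII (Col17a1) span the cell membrane, and on the inner side the plakins dystonin (Dst, also called BP230) and plectin (Plec1) tie them to keratin filaments. On the outer side they hold laminin-332, a trimer whose α3 and β3 chains come from Lama3 and Lamb3. Itga3 encodes the α3 chain of a second laminin-332 receptor, the integrin α3β1, and Cd151 a tetraspanin that associates with both integrins. In the prostate the hemidesmosome is known from basal cells, the layer that rests on the basement membrane. The members were taken by gene name on the array: the 9 genes, of 27827 named on it, were covered by 25 of 41174 probes, of which 23 were well above background and were tested.

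The RNA came from prostaspheres of C57/Bl6J background, formed in matrigel from epithelial cells of the urogenital sinus (UGS) at 16 days post conception, although the methods describe the assay with adult prostate tissue. After 6 days with dihydrotestosterone, TAM at 5 µM or vehicle was given for 6 days. Each of 2 arrays on 1 slide held 2 RNAs. The genotype comparison set wild-type cells with TAM (Cy5) against ER-Sox9flox/flox cells with TAM (Cy3), and the treatment comparison set ER-Sox9flox/flox cells with vehicle (Cy5) against ER-Sox9flox/flox cells with TAM (Cy3). The floxed Sox9 of the ER-Sox9flox/flox line is cut by a TAM-activated Cre from the Rosa26 locus, which is not limited to epithelium. Each log2 ratio is Sox9-expressing over Sox9-deleted RNA, and the 2 arrays are the replicates (n = 2). The genotype comparison also differs in mouse line and the treatment comparison in exposure to TAM. With no dye swap, dye bias and the response to Sox9 cannot be told apart, and with bulk RNA, fewer cells of a type and less RNA per cell cannot be told apart.

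Sox9 itself, read from its brightest probe, stood at 2.69 on the genotype array and 2.37 on the treatment array (mean log2 ratio 2.53 ± 0.23, SD, adjusted p = 0.0591 by limma). A second Sox9 probe stood at 1.22 ± 0.07, and another at -1.11 ± 0.16. Whether a probe lies inside the floxed part is not given in the sources used here. As to the labelled cell type, the basal markers Krt5, Krt14, Krt15, Trp63, Cdh3, Ngfr and Jag2 were all well above background. Their summed brightness was 301666 to 339038 in Sox9-expressing RNA and 101852 to 104754 in Sox9-deleted RNA. General epithelial markers summed to 18647 to 21612 against 27933 to 29167, with 3 of 4 below 0 on both arrays (Cdh1, Cldn4 and Cldn7) and Epcam above, at 0.46 and 0.37. Luminal markers summed to 184135 to 213906 against 227718 to 267274, with 3 of 6 below 0 on both arrays, Krt19 above, and Krt8 at 0.01 and -0.74. Fibroblast markers summed to 30216 in wild-type cells, 76933 in vehicle-treated ER-Sox9flox/flox cells and 46910 to 53918 in the Sox9-deleted RNAs. Smooth muscle markers followed with 13147, 31664 and 19264 to 21897, and skeletal muscle markers with 655, 4779 and 1196 to 1709. Blood markers summed to 1878 to 3599 against 3341 to 4175, endothelial markers to 314 to 327 against 316 to 356. Squamous markers summed to 4015 to 6153 against 5767 to 6366, but their members diverged: Ivl was below 0 on both arrays (-2.52 and -0.91), and Lor (1.41 and 1.09), Krt1 (0.74 and 1.59) and Krt10 (1.78 and 2.14) were above, with list medians of 1.07 and 1.34. A sum is weighted to the brightest probes of a list. Ptprc, Pecam1, Tek and Ckm were not well above background. The part of the basal and stromal shifts in the results below was not tested.

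Col17a1, the transmembrane collagen of the hemidesmosome, had the highest ratio of the members. It is read by a pair of probes 252 bases apart on chromosome 19, on the minus strand (build mm9). The probes do not overlap and so read separate pieces of the transcript, and the first 30 of the 60 bases of each are given as the files hold them.
Col17a1 chr19:47720894-47720953: ggcacagttggtttttatttaagcactttc
Col17a1 chr19:47721206-47721265: acagaggtgactgttgcaactgaaaacact

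The brightness of the first, after normalization and with the added offset of 50, was 15385 in wild-type cells with TAM and 10981 in ER-Sox9flox/flox cells with vehicle. In the Sox9-deleted RNAs it was 2505 on the genotype array and 2682 on the treatment array. Both Sox9-expressing RNAs thus lay above both Sox9-deleted RNAs, and the latter were close to each other. The log2 ratios were 2.62 and 2.03, with a mean of 2.33 ± 0.41 (SD), which is 5.02-fold, and a 95% confidence interval of 1.85 to 2.80. The second probe was dimmer (1856 and 1456 against 558 and 518) and gave 1.73 and 1.49, a mean of 1.61 ± 0.17 or 3.06-fold. With Benjamini-Hochberg adjustment over all 22731 tested probes, limma gave an adjusted p of 0.0833 and of 0.0782 for these probes, above the threshold of 0.05. By its mean log2 ratio, Col17a1 was number 6 of 15131 tested genes from the top.

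**Figure D1:**
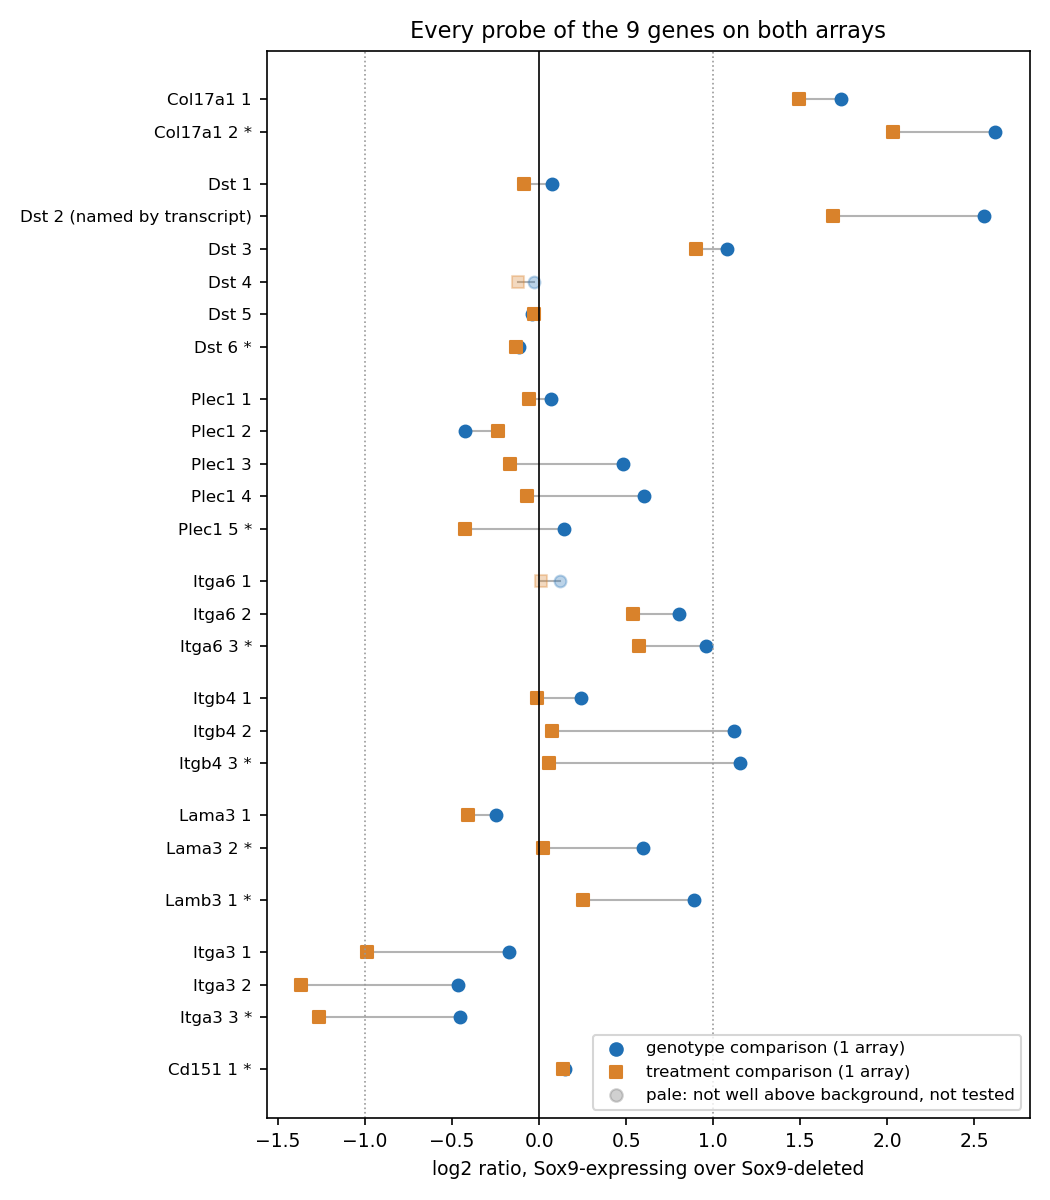
Log2 ratio of every probe of the 9 genes (x axis, Sox9-expressing over Sox9-deleted RNA) in the genotype comparison (circles) and the treatment comparison (squares), 1 array each, with the probes of a gene numbered along its direction of transcription. An asterisk marks the brightest tested probe, pale symbols mark the 2 probes not tested, and the dotted lines stand at a log2 ratio of 1 and -1. Both Col17a1 probes and 2 neighbouring dystonin probes lie to the right on both arrays, and the 3 Itga3 probes lie to the left.

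A window before an annotated start is shown for Col17a1, the highest member. For Dst and Itga3, the window that holds a letter match that can be marked is shown. RefSeq windows of 300 bases (250 before and 50 after a start, build GRCm38.p6) were at hand for 5 of the 8 members searched, 9 windows in all. Both strands were searched for ACAAAG and ACAATG, letters of SOX-type sites, and for TATAAA, letters of a core promoter element. ACAAAG was in 18.7% and ACAATG in 12.6% of 32851 windows, either in 28.6%, and TATAAA in 13.6%. Of the 9 member windows, 3 held ACAAAG, always as the complement CTTTGT, and none held ACAATG. In the Col17a1 window the match lies after the start, in the 50 bases not shown, and TATAAA occurs 140 and 91 bases before the start. In the Dst and Itga3 windows shown, the match begins 152 and 56 bases before the start. Both genes also have another window, at chr1:34160010-34160309 and chr11:95076665-95076964, which held no match. From which start the transcripts read by the probes begin was not tested. Capitals mark the matches in the 250 bases before each start, 5′ to 3′ on the gene's strand.
Col17a1 chr19:47692043-47692292, minus strand: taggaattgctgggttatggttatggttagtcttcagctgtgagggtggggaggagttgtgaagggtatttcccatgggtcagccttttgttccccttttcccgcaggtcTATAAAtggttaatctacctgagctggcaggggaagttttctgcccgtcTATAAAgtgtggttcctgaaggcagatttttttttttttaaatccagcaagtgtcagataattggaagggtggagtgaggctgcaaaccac
Dst chr1:34011345-34011594, plus strand: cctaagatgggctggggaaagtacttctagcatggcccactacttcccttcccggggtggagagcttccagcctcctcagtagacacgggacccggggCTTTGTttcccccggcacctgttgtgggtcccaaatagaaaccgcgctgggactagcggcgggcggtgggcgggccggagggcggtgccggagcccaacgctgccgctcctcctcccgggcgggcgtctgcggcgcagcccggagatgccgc
Itga3 chr11:95069199-95069448, minus strand: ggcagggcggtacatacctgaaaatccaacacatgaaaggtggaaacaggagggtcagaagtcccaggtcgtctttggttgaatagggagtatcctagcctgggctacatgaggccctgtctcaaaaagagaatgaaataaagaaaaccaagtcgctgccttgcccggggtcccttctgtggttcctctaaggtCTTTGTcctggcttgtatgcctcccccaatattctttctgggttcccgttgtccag
These are matches of letters, and binding was not measured.

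Dst encodes several proteins from different starts and ends, of which the epithelial form is the one in hemidesmosomes and others serve neurons and muscle. Its probes gave different answers by position on chromosome 1 (build mm9, plus strand). The array names 5 probes Dst. A sixth is named only by an Ensembl transcript that its description calls dystonin, and the same transcript is listed for a probe named Dst. It lies 546 bases before a Dst probe and, by its name, falls outside the members. The first 30 bases of these neighbours and of the brightest probe named Dst, 124 kb downstream, are shown since the result turns on which is read.
Dystonin transcript chr1:34239785-34239844: gaaagctgattttgatttccacacaggact
Dst chr1:34240391-34240450: tttactttggttgagactttggaaataaaa
Dst chr1:34364644-34364703: aggaagaaagaacttaacatgaactgatgt

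The brightness of the probe named by the transcript was 2056 in wild-type and 996 in vehicle-treated cells, against 349 and 309 in the Sox9-deleted RNAs. It gave log2 ratios of 2.56 and 1.69, a mean of 2.12 ± 0.61 (adjusted p = 0.105 by limma). Its neighbour named Dst read 292 and 221 against 138 and 119, with ratios of 1.08 and 0.90 and a mean of 0.99 ± 0.13 (adjusted p = 0.0883). At both positions the Sox9-expressing RNAs lay above the Sox9-deleted RNAs. Of the member probes, this dim neighbour had the widest range of means over the processing alternatives: the mean was 1.35 with an offset of 10, 1.43 with no background subtraction, 1.51 in the authors' processed values and 2.26 as the scanner software gave it.

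The other tested Dst probes were near 0. The brightest, described as transcript variant b, read 189 and 174 against 204 and 190, with log2 ratios of -0.11 and -0.13. A probe at chr1:34351256-34351315, also for variant b, gave -0.04 and -0.03, and one upstream at chr1:34209337-34211389, for variant a, gave 0.07 and -0.09. The probe at chr1:34329053-34329112 was not well above background in either dye and was not tested. Reading a gene from its brightest probe therefore put Dst at -0.12 ± 0.01, whereas the probe named by the transcript would have been the one read by this rule had it carried the gene's name. Averaging the 4 tested Dst probes gave 0.21. Which isoform each probe reads was not tested.

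Plec1, the other plakin, showed no common direction over its 5 probes on chromosome 15 (build mm9). The brightest, at chr15:76002029-76002088, read 1164 in wild-type and 780 in vehicle-treated cells against 1056 and 1050, with log2 ratios of 0.14 and -0.43. The vehicle-treated cells were lowest, and the wild-type cells differed little from the Sox9-deleted RNAs. The probes at chr15:76019695-76019754 (0.60 and -0.07) and chr15:76025192-76059796 (0.48 and -0.17) were likewise above 0 on the genotype array and below 0 on the treatment array. The probe at chr15:76063635-76063694 was below 0 in both (-0.43 and -0.24). The fifth, at chr15:76065252-76065311, lies on the opposite strand to the others and its description calls the product unclassifiable; it gave 0.07 and -0.06. The means of the 5 probes ran from -0.33 to 0.27.

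Itga6 and Itgb4 encode the partners of one integrin and differed in how far the 2 arrays agreed. The brightest Itga6 probe, at chr2:71695973-71696032 (build mm9, plus strand), read 10515 in wild-type and 7814 in vehicle-treated cells against 5413 and 5246 in the Sox9-deleted RNAs. Its log2 ratios of 0.96 and 0.57 had a mean of 0.77 ± 0.27, which is 1.70-fold (adjusted p = 0.138 by limma). The probe at chr2:71694194-71694253 gave 0.80 and 0.54, and at neither position did the RNAs with and without Sox9 overlap. The Itga6 probe at chr2:71692909-71692968 was well above background in 1 of 4 channels and was not tested.

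Itgb4 is read at 3 positions on chromosome 11 (build mm9, plus strand), of which 2 are one site in practice, since those 60-base probes are shifted by 10 bases. The shared bases within the first 30 of each are in capitals.
Itgb4 chr11:115869547-115869606: gtccaggaacCATAAAGTGGGTAGAGGTGA
Itgb4 chr11:115869557-115869616: CATAAAGTGGGTAGAGGTGAtacaaggtct

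The brighter of the pair read 16880 in wild-type cells, 9208 in vehicle-treated cells, and 7587 and 8845 in the Sox9-deleted RNAs. Wild-type cells stood apart, and the vehicle-treated cells lay just above the higher of the Sox9-deleted RNAs. The log2 ratios were 1.15 and 0.06 (mean 0.61 ± 0.77, 95% confidence interval -0.22 to 1.43), and those of the overlapping probe 1.12 and 0.07. The distant probe at chr11:115855887-115855946, described from a cerebellum cDNA, was dim and gave 0.24 and -0.01. The treatment value depended on the normalization: with median centring in place of loess it was 0.78, beside 1.31 in the genotype comparison. With that setting the median of all tested probes was 0.38 in the treatment and 0.02 in the genotype comparison.

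Lamb3 and Lama3, which encode chains of laminin-332, had, like Itgb4, the larger value on the genotype array. The Lamb3 probe, at chr1:195167088-195167147 (build mm9, plus strand), read 6358 in wild-type and 4452 in vehicle-treated cells against 3436 and 3738. Its log2 ratios were 0.89 and 0.25, with a mean of 0.57 ± 0.45 (adjusted p = 0.25 by limma). Of the 2 Lama3 probes, 126 kb apart, the brighter read 2865 in wild-type cells, 1644 in vehicle-treated cells, and 1896 and 1621 in the Sox9-deleted RNAs. Here again the wild-type RNA was the high one, while the vehicle RNA lay between the Sox9-deleted RNAs, and the log2 ratios were 0.60 and 0.02. The other Lama3 probe, upstream and dim, was below 0 on both arrays (-0.25 and -0.41). The mean of both Lama3 probes was therefore -0.011.

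Their brightest probes thus stood at 0.60 and 0.89 on the genotype array and at 0.02 and 0.25 on the treatment array, and with 1 array each the difference between the comparisons could not be tested. With median centring the treatment values of Lama3 and Lamb3 were 0.59 and 0.90, while the median of all tested probes in that comparison was 0.38.

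Itga3 was the lowest member, and its 3 probes on chromosome 11 (build mm9, minus strand) ran alike. The brightest, at chr11:94905987-94906046, read 3081 in wild-type and 1554 in vehicle-treated cells against 4215 and 3732 in the Sox9-deleted RNAs. Both Sox9-expressing RNAs were below both Sox9-deleted RNAs, and the vehicle-treated cells were the lowest. The log2 ratios were -0.45 and -1.26, a mean of -0.86 ± 0.57 (adjusted p = 0.206 by limma). The probes at chr11:94906314-94906373 and chr11:94915485-94917062 gave -0.47 and -1.37, and -0.17 and -0.99. Itgb1, which encodes the partner chain of Itga3 and is named here for that role, stood at -0.14 and -0.10. The Cd151 probe, at chr7:148657237-148657297 (plus strand), read 9254 and 8791 against 8364 and 8010, with log2 ratios of 0.15 and 0.13. The spread between the arrays was 0.01, and the 95% confidence interval of the mean, -0.07 to 0.35, included 0.

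**Figure D2:**
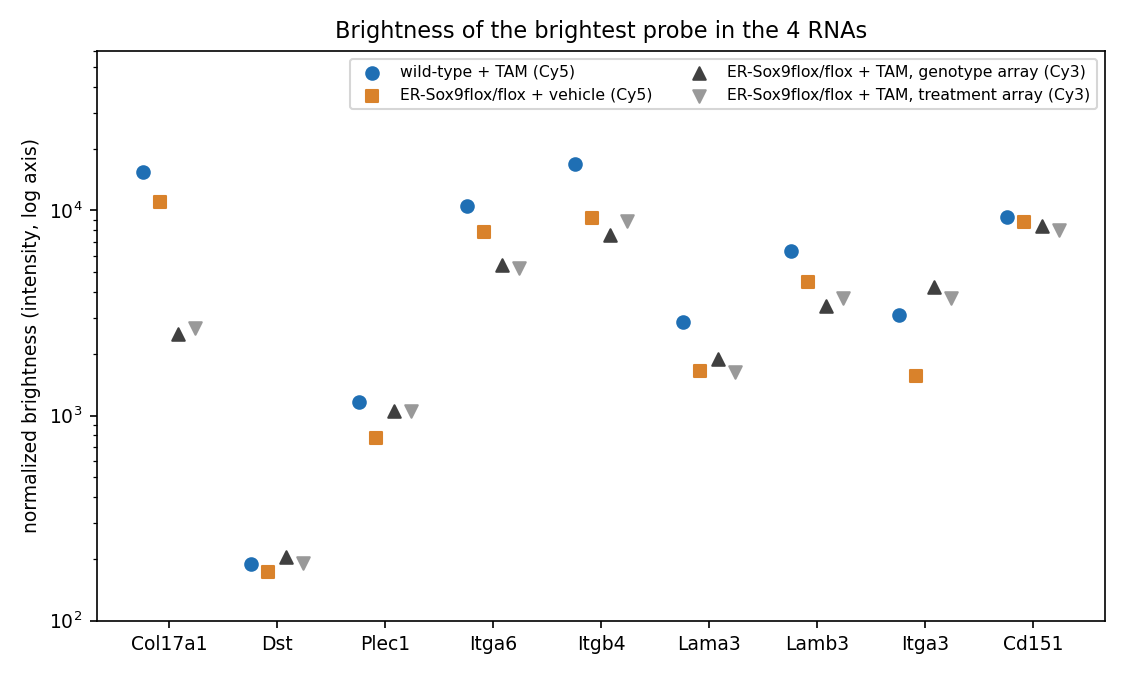
Normalized brightness (y axis, log scale, intensity units with an offset of 50) of the brightest tested probe of each gene in the 4 RNAs, 1 point per RNA. Col17a1 stands at 10981 and 15385 in the Sox9-expressing RNAs and at 2505 and 2682 in the Sox9-deleted RNAs, whereas for Itgb4 and Lama3 the wild-type RNA alone stands apart. Levels of different genes are not comparable, since each is read by its own probe.

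Over the members as a set, no probe of 23 passed an adjusted p of 0.05, by limma, against 0.0088% of all tested probes, which is 2 of 22731. In the authors' processed values both Col17a1 probes passed, as did 0.299% of all probes. With median centring 8 member probes did, beside 2.3% of all probes: those of Col17a1, Itga6, Lamb3, the overlapping Itgb4 pair and the higher Dst probe. That fit gave every member probe the same standard error (0.27), so its p-values do not measure a probe's own spread. It tested against 0, although the median of all tested probes was 0.38 in the treatment comparison. With loess, 6 member probes were higher with Sox9 at an unadjusted p under 0.05 by limma, where the share of all probes was 9.5%. Another 4 were lower, where the share was 8.05%. Of the 10, the higher ones were both Col17a1 and both tested Itga6 probes, the Dst probe beside the transcript probe, and Lamb3. The lower ones were 2 Itga3 probes, the dim Lama3 probe and 1 Plec1 probe. Being at least 2-fold higher on both arrays was a property of 2 member probes, both of Col17a1, and of 0.29% of all probes. None was 2-fold lower on both, against 0.128%.

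Taken by single array, 5 member probes were at least 2-fold higher in the genotype comparison (0.471% of all probes): both Col17a1 probes, the overlapping Itgb4 pair and the Dst probe. In the treatment comparison 2 Itga3 probes were at least 2-fold lower (0.326% of all probes), and the 2 probes higher by that much were those of Col17a1 (1.35% of all probes). Read by the brightest probe, 6 of 9 genes were above 0 on both arrays and 2 below (33.8% and 33.8% of all genes). The brightness of both Sox9-expressing RNAs was above both Sox9-deleted RNAs in 5 genes (Col17a1, Itga6, Itgb4, Lamb3 and Cd151) and below in Dst and Itga3, against 26.9% and 26.3% of all genes. The place of Dst in these counts rests on its brightest probe (-0.11 and -0.13). The Dst probe beside the transcript probe stood at 1.08 and 0.90, the transcript probe at 2.56 and 1.69, and the other tested Dst probes near 0.

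The median log2 ratio of the 9 genes was 0.60 for the genotype comparison and 0.06 for the treatment comparison, beside -0.01 and 0.01 over all tested genes. All 9 had the larger value in the genotype comparison, as had 48.6% of all genes, by a median of 0.58. For Dst and Cd151 the difference was only 0.02 and 0.01. For Itga3 the larger value was the less negative one (-0.45 against -1.26). The members share 2 arrays, so they are not independent counts. The number of 9 depended on the normalization. It was 8 of 9 with no background subtraction, with arrays scaled to the same spread and in the authors' processed values. With median centring it was 6 of 9. The share of all genes was not counted with these alternatives, so the lower numbers cannot be read as a result about the members. Median centring put the median of all tested probes, bright and dim together, at 0.02 in the genotype and 0.38 in the treatment comparison. Its member medians were 0.67 and 0.78.

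**Figure D3:**
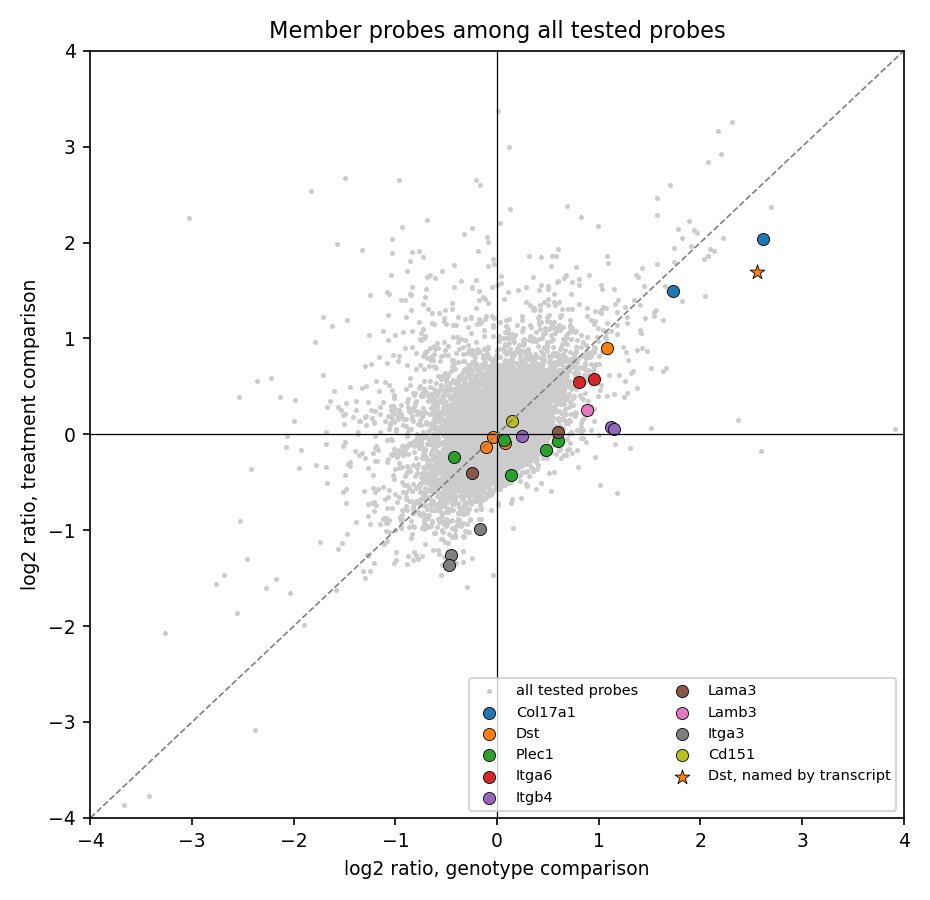
Log2 ratios in the genotype comparison (x axis) and the treatment comparison (y axis) of all 22731 tested probes (grey), the 23 tested member probes (coloured by gene) and the probe named by a dystonin transcript (star). The dashed line marks equal values on both arrays. Col17a1 lies far out on both axes, and most of the other members lie below the line.

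Of 8 other laminin chains, 6 were tested, none was above 0 on both arrays and 1, Lama5, was below (mean -0.35 ± 0.37). Among all genes, 33.8% were above 0 on both arrays and 33.8% below. The medians of the laminin chains were -0.11 and 0.22 in the genotype and the treatment comparison. Lamb2, a chain of vascular and muscle basement membranes, was highest with 0.08 ± 0.20, followed by the widespread chain Lamc1 with 0.04 ± 0.25. Lama2, a muscle chain, was next to Lama5 with -0.04 ± 0.48. None of these chains was 2-fold in one direction on both arrays, where 57 of 15131 genes were higher and 24 lower. None passed an adjusted p of 0.05 by limma.

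Of 23 other basement membrane genes, 21 were tested, with medians of -0.03 and 0.21 and none 2-fold on both arrays. Above 0 on both arrays were 8 and below 2, beside 33.8% and 33.8% of all genes. The highest was Col7a1, the collagen of the anchoring fibrils that secure the basement membrane beneath hemidesmosomes, with 1.26 and 0.56 (mean 0.91 ± 0.50, adjusted p = 0.179 by limma). Col4a6, a type IV collagen chain, followed with 0.14 and 1.05. Nid1 (nidogen, -0.95 and 0.21) and Col15a1 (-0.70 and 0.13) were the lowest and had opposite signs on the 2 arrays, as had the medians of the fibroblast marker list (-0.77 and 0.50).

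Enzymes that process laminin-332 or collagen XVII numbered 12, of which 10 were tested. Above 0 on both arrays were 4 and below 4, beside 33.8% and 33.8% of all genes. The medians were -0.17 and 0.14. Plat, tissue plasminogen activator, was lowest with -1.27 and -0.85 (mean -1.06 ± 0.29, adjusted p = 0.108 by limma), and Mmp2, a gelatinase, had -1.45 and -0.29. Adam10, a sheddase, was highest with 0.34 and 0.53, and Mmp14, a membrane-bound metalloproteinase, had 0.21 and 0.20. Of 28 other adhesion receptors and their partners, 27 were tested, with medians of -0.03 and 0.10. Above 0 on both arrays were 10 and below 7, beside the same shares of all genes. The 2 that were at least 2-fold higher on both arrays were Krt5 (2.13 and 1.91) and Krt14 (2.07 and 1.86), beside 57 of 15131 genes. Both are keratins of the filaments that hemidesmosomes anchor, each with an adjusted p of 0.0591 by limma.

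**Figure D4:**
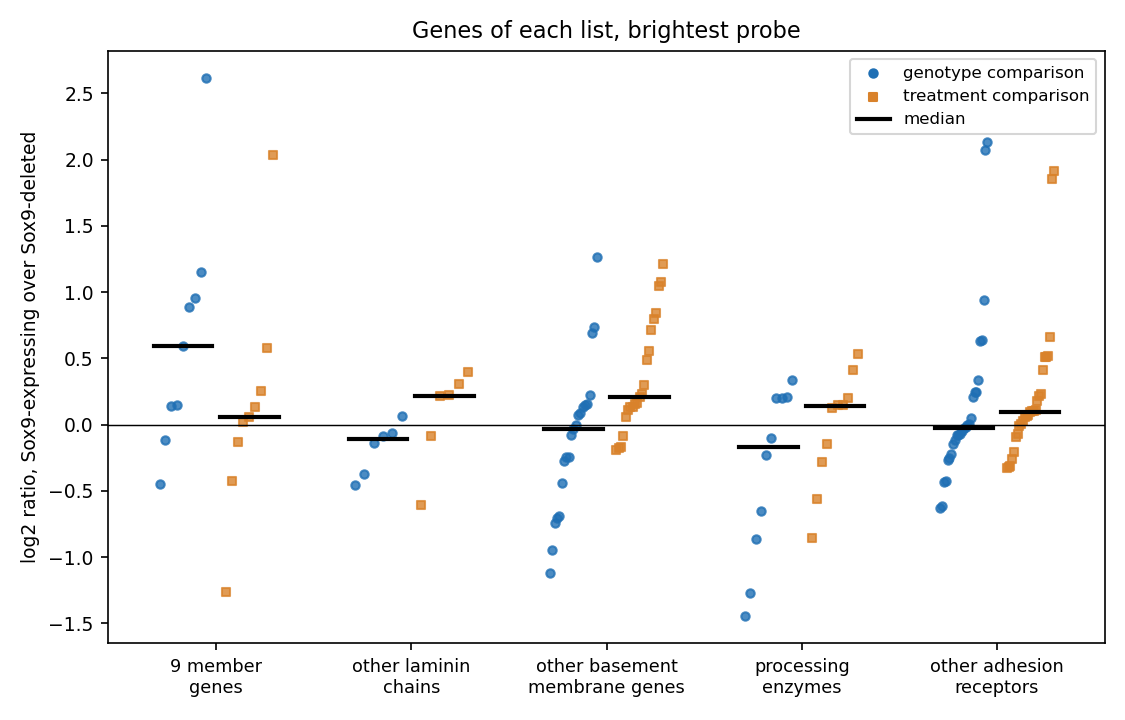
Log2 ratios (y axis) of the 9 members and of 4 lists of related genes, each gene read from its brightest tested probe, in the genotype comparison (circles) and the treatment comparison (squares), with medians as bars. The member median is 0.60 on the first array and 0.06 on the second, whereas the medians of the lists lie between -0.17 and 0.22.

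The 5 tested genes nearest to Col17a1 in their pair of log2 ratios, by distance over the 2 arrays, were Sox9 (distance 0.34), the dystonin transcript (0.35), Expi (0.40), Krt5 (0.50) and Krt14 (0.58). With 2 arrays, likeness rests on 2 values per gene. Krt5 and Krt14 encode the paired keratins of basal cells. Expi, a secreted protein with a WAP domain, gave 2.22 and 2.04.

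**Figure D5:**
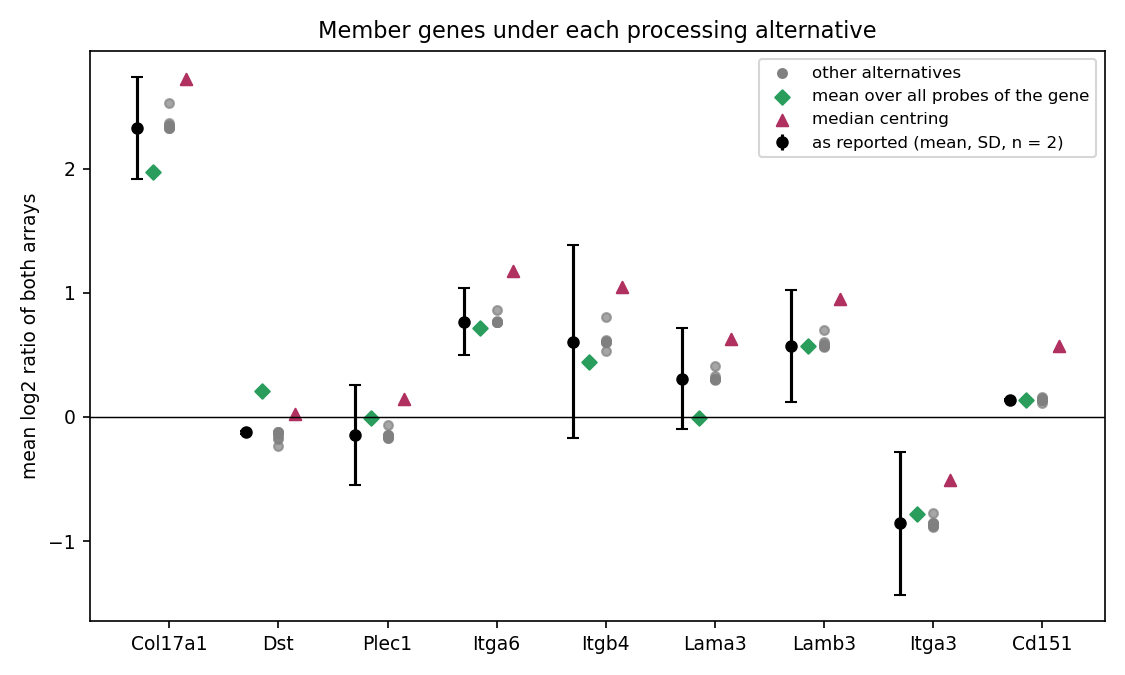
Mean log2 ratio of both arrays (y axis) of each member gene as reported (black, with SD, n = 2), under median centring (triangles), as the mean over all probes of the gene (diamonds) and under the other alternatives (grey). Col17a1 keeps a mean of 1.97 to 2.72, while Dst, Plec1 and Lama3 lie near 0 or cross it.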

How the data were processed

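Prostasphere RNA was hybridized to 2 Agilent 2-colour arrays on 1 slide, scanned together, without a dye swap. Labelling was primed from the poly(A) tail. RNAs were assigned by the titles, genotypes, treatments and dyes of the labels. Source names, which read as the opposite assignment, were not used, and the genotype label does not tell the 2 RNAs of the treatment comparison apart.

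The authors' scanner software, Agilent Feature Extraction 10.5.1.1, gave the deposited mean spot intensity and local background intensity, and the deposited log10 ratio of Cy5 over Cy3. The authors also deposited processed log2 ratios. How these were made is not given in the sources used here beyond limma being named. Coordinates are those of the files (build mm9).

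Intensities were corrected with normexp (limma 3.58.1, R 4.3.3, offset 50), which shrinks ratios of dim probes, and normalized by loess within each array. Outlier spots (126 and 130) were left out. Tested were the 22731 of 41174 probes that stood well above background on both arrays in the same dye, with limma's lmFit and eBayes on the mean log2 ratio against 0, two-sided, with Benjamini-Hochberg adjustment over all of them. With 1 residual degree of freedom, the error of a probe is drawn largely from all probes together (2.80 prior degrees of freedom). Whether the arrays hold separate cultures is not stated, so p-values measure the spread between these arrays. Under median centring the member probes shared 1 standard error, so p-values there do not measure a probe's own spread. No spot was saturated, and the number of arrays limits the precision. Brightness per RNA is the channel value after loess and Aquantile. The code was tested on simulated data.

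The members, gene lists and alternatives were chosen with earlier results of these data known. Of the lists, 2 genes are not reported here and were left out of the counts. Genes were named by rule: every member and probe, Sox9, genes of the lists past 2-fold on both arrays or otherwise the 2 highest and 2 lowest, and the 5 genes nearest to Col17a1. Itgb1 and the grouping of Dst probes by position were added after values were seen. Tables and figures used Python 3.11.15, pandas 2.3.3, numpy 2.4.6 and matplotlib 3.10.9.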

Additional observations from a re-analysis of the deposited data

Results flagged for a closer look

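Member probes with opposite signs on the 2 arrays are listed by the log2 ratio of the genotype comparison minus that of the treatment comparison. With 1 array per comparison, the difference was not tested. It was 0.57 for the brightest Plec1 probe, 0.67 for the Plec1 probe at chr15:76019695-76019754, 0.65 for the one at chr15:76025192-76059796 and 0.12 for the probe on the opposite strand. For the dim Itgb4 probe it was 0.25, and for the upstream Dst probe 0.16.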

How the results depend on the processing

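With 11 alternatives, 18 of 23 member probes kept the sign of their mean in every one that gave a value. The t-test, keeping outlier spots and the changed filters on dim probes left each member mean as it was, so they could reverse no sign. The share of all probes that kept their sign was not counted. Under median centring, 8 member probes passed an adjusted p of 0.05 by limma (522 of all probes), with the same standard error of 0.27 for each. There 4 were 2-fold on both arrays (122 of all probes), while the genotype minus treatment median was 0.076. The means of Dst (0.025), its upstream probe (0.027) and Plec1 (0.15) were then above 0, and that of the opposite-strand Plec1 probe was below (-0.038). In the authors' processed values, 2 member probes, both of Col17a1, passed (68 of all probes). Averaging all probes of a gene left 1 gene 2-fold on both arrays (65 of 15131 genes), with Dst at 0.21 and Lama3 at -0.011. The upstream Dst probe stood at 0.016 with no background subtraction, 0.018 with arrays scaled to the same spread and 0.066 in the scanner software log ratio, and the opposite-strand Plec1 probe at -0.012 with an offset of 10. The cause was not tested. With 1 array left out, 4 to 5 member probes were 2-fold in either direction. On the treatment array alone, 2 were higher (1.35% of all probes) and 2 lower (0.326%). On the genotype array alone, 5 were higher (0.471%) and 0 lower (191 of 22731 probes). The member median was 0.06 on the treatment array and 0.60 on the genotype array. The methods' t-test gave 2 of 23 member probes at its unadjusted threshold, beside 1930 of 22731 probes, and 0 after adjustment. No paired analysis was possible because each array is already a paired ratio and the arrays form 1 group. Ratios of dim probes are understated by the offset.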
